A study of Mus musculus with 6 samples.

Results

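A set of 9 genes of the major histocompatibility complex (MHC) class I presentation pathway was followed through RNA-seq of CD4+ T cells sorted by their level of CD25, a subunit of the receptor for interleukin-2. The genes were taken by symbol: the heavy chains H2-K1, H2-D1 and H2-T23, the light chain B2m, the transporter and loading genes Tap1, Tap2, Tapbp and Erap1, and the transcriptional activator Nlrc5. All 9 had a row among the 15445 genes of the count table, and all 9 passed the low-count filter, which left 12987 tested genes. The CD25-high group and the CD25-low group held 3 libraries each. Both were transgenic CD4+ T cells of a single clone from spleens of C57BL/6 mice given lymphocytic choriomeningitis virus (LCMV) 5 days earlier, sorted by CD4, by CD25 and by the congenic marker Thy1.1. The labels name neither the receptor transgene nor the number of animals behind a library, so the p-values reflect only how far these libraries scatter, part of which may be technical.

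A class I molecule is a heavy chain held together with beta-2 microglobulin and a short peptide, and almost every nucleated cell displays it to CD8+ T cells and natural killer cells. Peptides cut by the proteasome are pumped into the endoplasmic reticulum by the TAP transporter, trimmed there by the aminopeptidase ERAP1, and loaded onto heavy chains with the help of tapasin and the chaperones calreticulin, calnexin and ERp57. Interferons and the activator NLRC5, which acts on a shared promoter module of heavy chain, B2m and TAP genes, raise the pathway in lymphocytes.

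Il2ra, which encodes CD25, checks the labels of the sort. It had 1536, 432 and 666 CPM (counts scaled to library size) in CD25-high libraries 1, 2 and 3, against 20.7, 29.4 and 35.7 CPM in CD25-low libraries 1, 2 and 3. Total counts were 16787233 to 18847288 in CD25-high libraries and 18810599 to 23567066 in CD25-low libraries. The mitochondrial ribosomal RNA share was 29.26% to 33.99% of CD25-high and 31.71% to 35.33% of CD25-low counts. The listed CD4 T cell markers, 9 of 9 with a row, summed to 3369 to 3464 CPM in CD25-high, against 3391 to 4437 CPM in CD25-low libraries, with Cd3e and Cd28 the most abundant. In a fit that pairs same-numbered libraries (the replicate block, called the block here) 2 of the 9 passed. These were Cd3d and Cd3g, both lower in CD25-high cells (edgeR adjusted p 0.0134 and 0.0135), where 2.9% of all tested genes were lower. Without the block 0 of the 9 passed. Thy1 and Cd5 were higher in CD25-high cells with the block, by 0.55 and 0.21 on the log2 scale (edgeR adjusted p 0.0753 and 0.57). The rest were lower and did not pass. Of 6 B cell markers 2 had a row (Cd79b and Cr2), with sums of 1.69 to 4.90 CPM in CD25-high, against 1.86 to 4.60 CPM in CD25-low libraries. Of 9 myeloid and dendritic markers 6 had a row, with sums of 27.7 to 93.6 CPM in CD25-high, against 13.3 to 43.7 CPM in CD25-low libraries, most of it Itgam (mean 56.6 CPM in CD25-high, against 21.1 CPM in CD25-low, edgeR adjusted p 0.433, and 0.0013 with the block), followed by Cd68 (5.23 CPM in CD25-high, against 6.47 CPM in CD25-low). Cd8b1, the 1 of 2 CD8 T cell markers with a row, averaged 4.49 CPM in CD25-high, against 2.05 CPM in CD25-low libraries. The 2 of 4 natural killer cell markers with a row, Eomes and Klrb1c, summed to 0.426 to 4.59 CPM in CD25-high, against 0.869 to 3.01 CPM in CD25-low libraries, and 0 of 5 erythroid markers had a row. Defining markers at 0 were Klrb1c in 2 CD25-high libraries, Cd79b and Lyz2 in 1 CD25-high library each, and Itgax in 1 CD25-low library. The part of other cell types in the results was not tested.

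Upstream sequences of the heavy chain and B2m genes are shown because they encode the 2 chains of the class I molecule, and because the activator and interferon signals named above act there. Each line is the 250 bases before a start site annotated by RefSeq (GRCm38.p6), written 5′ to 3′ on the gene's strand. H2-Q7, a heavy chain of the Qa group with little difference between groups, is given for comparison. Capitals mark matches, on either strand, to GATTCCC (the core of the kappa B site in the class I enhancer), TTTCNNTT (the core of an interferon-stimulated response element), TGACG (the core of the X2 box) and CCAAT (the Y box). None of the marked matches overlaps another, and the motifs were chosen with these sequences known.

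H2-K1 (chr17:34000348-34000597, minus strand): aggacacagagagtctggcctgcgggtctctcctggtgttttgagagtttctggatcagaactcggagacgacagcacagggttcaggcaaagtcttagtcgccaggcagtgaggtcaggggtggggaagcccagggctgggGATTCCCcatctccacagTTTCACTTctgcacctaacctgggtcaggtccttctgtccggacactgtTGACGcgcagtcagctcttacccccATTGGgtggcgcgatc

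H2-D1 (chr17:35262844-35263093, plus strand): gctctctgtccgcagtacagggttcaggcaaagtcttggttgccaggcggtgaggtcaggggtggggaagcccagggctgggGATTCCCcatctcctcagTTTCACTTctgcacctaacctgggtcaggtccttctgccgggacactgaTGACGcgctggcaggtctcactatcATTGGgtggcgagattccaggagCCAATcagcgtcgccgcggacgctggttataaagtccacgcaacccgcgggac

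H2-Q7 (chr17:35438905-35439154, plus strand): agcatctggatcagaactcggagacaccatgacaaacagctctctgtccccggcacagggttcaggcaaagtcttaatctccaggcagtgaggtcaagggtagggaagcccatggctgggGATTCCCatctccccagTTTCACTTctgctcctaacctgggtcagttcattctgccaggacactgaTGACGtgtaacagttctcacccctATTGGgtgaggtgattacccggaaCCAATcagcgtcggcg

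B2m (chr2:122147437-122147686, plus strand): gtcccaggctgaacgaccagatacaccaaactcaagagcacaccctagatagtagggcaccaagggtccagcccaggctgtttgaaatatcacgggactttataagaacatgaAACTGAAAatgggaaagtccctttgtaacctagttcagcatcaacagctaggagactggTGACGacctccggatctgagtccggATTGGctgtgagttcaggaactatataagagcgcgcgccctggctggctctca

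H2-T23 (chr17:36032702-36032951, minus strand): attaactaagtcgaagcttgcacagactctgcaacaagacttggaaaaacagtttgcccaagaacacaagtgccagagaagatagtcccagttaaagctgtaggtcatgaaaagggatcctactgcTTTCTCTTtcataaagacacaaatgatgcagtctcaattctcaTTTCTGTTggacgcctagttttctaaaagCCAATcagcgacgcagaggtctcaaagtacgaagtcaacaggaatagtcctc

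H2-K1, H2-D1 and H2-Q7 held all 4 motifs, in the same order. H2-Q6, the other Qa-2 heavy chain, is not shown and held 3 of the 4, without the X2 core. Of all 32851 upstream windows of the same length, 2.83% held the kappa B core, 21.3% the interferon element core, 17.8% the X2 core, 33.8% the Y box and 0.0396% all 4. B2m had the last 3 of the 4, and H2-T23 had the interferon element core at 2 places and the Y box at 1. Sequences were found for 7 of the 9 genes. Tap1 held the X2 core and the Y box, Tapbp the Y box only, and Erap1 none of the 4 in this window. A match describes letters and does not show a bound site.

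The classical heavy chains H2-K1 and H2-D1, which present peptides to CD8+ T cells, had lower values in every CD25-high library than in any CD25-low library. H2-K1 measured 375, 537 and 527 CPM in CD25-high libraries 1, 2 and 3, against 933, 816 and 727 CPM in CD25-low libraries 1, 2 and 3. Every CD25-high library lay below every CD25-low library, and CD25-high library 1 was the lowest of the 6. Means were 480 ± 90.5 CPM in CD25-high cells, against 825 ± 104 CPM in CD25-low ones (SD, n = 3 each). The log2 fold change, CD25-high over CD25-low here and throughout, was -0.78 ± 0.20 (SE), a fold of 0.581. The edgeR adjusted p was 0.153, above the threshold of 0.05. With same-numbered libraries paired, as a replicate block in the fit, H2-K1 fell by 0.79 on the log2 scale (SE 0.17, edgeR adjusted p 0.0178). DESeq2, without pairing, gave an adjusted p of 0.0371. The paired differences were -1.31, -0.60 and -0.46 for pairs 1, 2 and 3, and the block call was lost without pair 1 (-0.54, adjusted p 0.0917). In a bulk sample, fewer transcripts per cell and fewer cells that make them cannot be told apart.

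H2-D1 measured 245, 471 and 486 CPM in CD25-high libraries 1, 2 and 3, against 524, 583 and 619 CPM in CD25-low libraries 1, 2 and 3. The groups did not overlap although CD25-high library 1 stood well below the other 2 CD25-high libraries. The log2 fold change was -0.52 ± 0.26 (edgeR adjusted p 0.498, and 0.0778 with the block). Without CD25-high library 1 it was -0.26 (adjusted p 0.696).

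H2-T23 encodes the heavy chain of Qa-1, a nonclassical molecule that presents leader peptides of other class I chains to natural killer and CD8+ T cell receptors. It measured 12.9, 24.1 and 21.3 CPM in CD25-high libraries 1, 2 and 3, against 29.8, 41.9 and 35.1 CPM in CD25-low libraries 1, 2 and 3. Again all CD25-high libraries lay below all CD25-low libraries. The log2 fold change was -0.87 ± 0.29, the largest in size of the 9 members, with an edgeR adjusted p of 0.292. With the block H2-T23 fell by 0.90 (SE 0.23, edgeR adjusted p 0.0404). The paired differences were -1.17, -0.79 and -0.71, and the block call was lost without pair 1, 2 or 3 (adjusted p 0.0983, 0.166 and 0.0772).

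B2m, the light chain shared by all class I molecules, was the most abundant member. It measured 2395, 2345 and 1896 CPM in CD25-high libraries 1, 2 and 3, against 3591, 2308 and 2739 CPM in CD25-low libraries 1, 2 and 3. The groups overlapped, because CD25-low library 2 was lower than 2 of the CD25-high libraries. The log2 fold change was -0.38 ± 0.21 (edgeR adjusted p 0.556, and 0.2 with the block). Without CD25-low library 1 it was -0.19 (adjusted p 0.741).

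**Figure D1:**
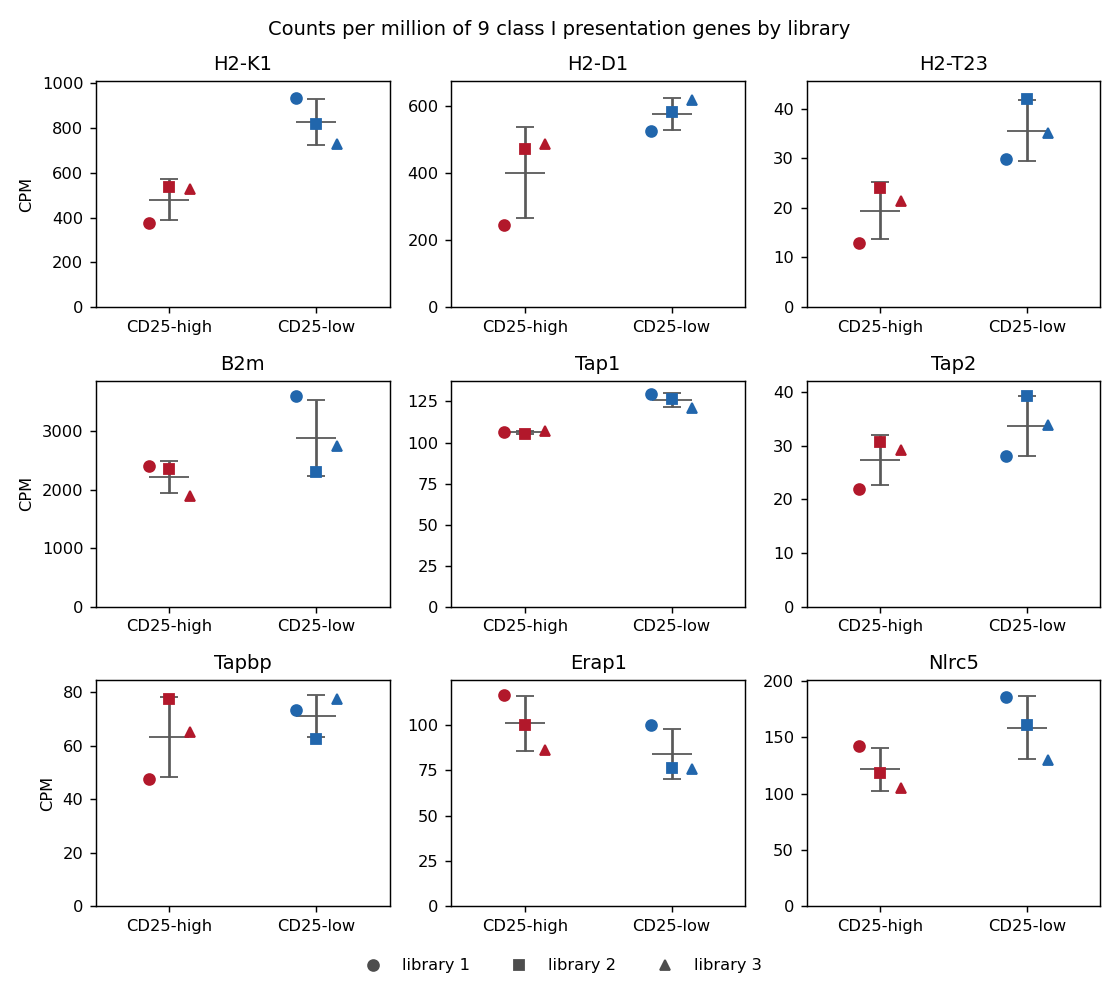
CPM (linear axes from 0) of the 9 genes in each library. Points are libraries 1 (circle), 2 (square) and 3 (triangle), CD25-high left in red and CD25-low right in blue, and bars give the mean ± SD; H2-K1, H2-D1, H2-T23 and Tap1 have no overlap between groups, and Erap1 has the higher mean in CD25-high.

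The transporter and loading genes had smaller log2 fold changes than the heavy chains, and none passed the test. Tap1, a subunit of the peptide transporter, measured 107, 105 and 107 CPM in CD25-high libraries 1, 2 and 3, against 129, 127 and 121 CPM in CD25-low libraries 1, 2 and 3. The spread within groups was small (SD 0.838 CPM in CD25-high, against 4.17 CPM in CD25-low), and the groups did not overlap. The log2 fold change of Tap1 was -0.24 ± 0.18 (edgeR adjusted p 0.67). Tap2, its partner subunit, measured 22, 30.7 and 29.3 CPM in CD25-high libraries 1, 2 and 3, against 28.1, 39.2 and 33.9 CPM in CD25-low libraries 1, 2 and 3. It was lower in CD25-high in every same-numbered pair (-0.35, -0.35 and -0.21), while the groups overlapped, and its log2 fold change was -0.30 ± 0.25 (adjusted p 0.712). Without CD25-high library 1 this was -0.17, and without CD25-low library 2 it was -0.18. Tapbp encodes tapasin, which bridges the transporter and empty heavy chains. It measured 47.7, 77.5 and 65.3 CPM in CD25-high libraries 1, 2 and 3, against 73.3, 62.5 and 77.7 CPM in CD25-low libraries 1, 2 and 3. The ranges overlapped, the log2 fold change was -0.16 ± 0.23 (adjusted p 0.854), and its sign turned without CD25-high library 1 (0.0046).

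Erap1, the trimming peptidase, was the 1 member with a positive log2 fold change. It measured 116, 99.7 and 86.2 CPM in CD25-high libraries 1, 2 and 3, against 99.8, 76.0 and 75.6 CPM in CD25-low libraries 1, 2 and 3. CD25-high exceeded CD25-low in each same-numbered pair (0.22, 0.39 and 0.19), although the groups overlapped. The log2 fold change was 0.27 ± 0.21 (edgeR adjusted p 0.705, and 0.433 with the block). Nlrc5, the activator of class I genes, measured 142, 119 and 105 CPM in CD25-high libraries 1, 2 and 3, against 186, 161 and 130 CPM in CD25-low libraries 1, 2 and 3. It was lower in CD25-high in all 3 pairs (-0.38, -0.44 and -0.31), with overlapping groups and a log2 fold change of -0.38 ± 0.21 (edgeR adjusted p 0.558, and 0.202 with the block).

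Over the 9 genes, 0 passed an edgeR adjusted p of 0.05 without the block, where 0.655% of all tested genes did (0.501% lower and 0.154% higher). At an unadjusted p under 0.05, 2 members were lower and 0 higher, beside 6.39% and 4.69% of all tested genes. With the block these were 5 lower and 0 higher, beside 9.38% and 8.68% (18.1% in either direction). With the block 2 passed, H2-K1 and H2-T23, both lower, where 4.63% of all tested genes passed, 2.9% lower and 1.73% higher. DESeq2 without the block called 1 member, H2-K1, where it called 2.54% of the 14530 genes to which it gave an adjusted p. In 8 of 9 members the log2 fold change was below 0, as in 49.2% of all tested genes. Members had a median log2 fold change of -0.38, beside 0.01 for all tested genes. All 3 CD25-high libraries lay below all 3 CD25-low libraries in 4 members, and in 9.54% of all tested genes, and above them in 0 members and 7.41% of all tested genes. In 6 members CD25-high was lower in all 3 same-numbered pairs, and in 20.2% of all tested genes. The members lie partly side by side in the genome and respond to shared signals, so they are not independent counts.

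Per kilobase of exon, which allows levels of different genes to be compared, B2m led with 2572 ± 319 CPM per kb in CD25-high, against 3348 ± 759 CPM per kb in CD25-low cells, which was rank 10 in CD25-high and rank 7 in CD25-low cells among 12785 tested genes with a length. H2-K1 had 163 ± 30.8 CPM per kb in CD25-high, against 281 ± 35.3 CPM per kb in CD25-low cells, and ranked 109 in CD25-high and 47 in CD25-low cells. H2-D1 stood next, with 155 ± 52.4 CPM per kb in CD25-high, against 223 ± 18.5 CPM per kb in CD25-low cells. The libraries' ranges of H2-K1 and H2-D1 overlapped in CD25-high cells and did not in CD25-low cells (247 to 318 CPM per kb for H2-K1 and 203 to 240 CPM per kb for H2-D1). Tap1 came next, with 19.4 ± 0.153 CPM per kb in CD25-high cells, against 23 ± 0.761 CPM per kb in CD25-low cells. Tapbp followed with 17.5 ± 4.12 CPM per kb in CD25-high cells, against 19.6 ± 2.15 CPM per kb in CD25-low cells, and its range overlapped that of Tap1 in CD25-high cells but lay below it in CD25-low cells. Nlrc5 had 14.4 ± 2.24 CPM per kb in CD25-high cells, against 18.7 ± 3.33 CPM per kb in CD25-low cells, with ranges that overlapped those of Tapbp in both groups. For Erap1 the level was 13.8 ± 2.07 CPM per kb in CD25-high cells, against 11.5 ± 1.90 CPM per kb in CD25-low cells. Tap2 had 7.22 ± 1.23 CPM per kb in CD25-high cells, against 8.92 ± 1.47 CPM per kb in CD25-low cells. H2-T23 had 6.73 ± 2.01 CPM per kb in CD25-high cells, against 12.3 ± 2.12 CPM per kb in CD25-low cells, so that it stood last in CD25-high cells and above Erap1 and Tap2 in CD25-low cells, with ranges that overlapped those of Tap2 in both groups.

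Ratios within a library do not depend on the scaling between libraries. Tap1 over Tap2, per length, was 3.35, 2.37 and 2.52 in CD25-high libraries 1, 2 and 3, against 3.18, 2.23 and 2.47 in CD25-low libraries 1, 2 and 3. The ratio was highest in the library numbered 1 of each group, and the groups overlapped (two-sided exact permutation p 0.6, without pairing), while in each of the 3 same-numbered pairs it was higher in CD25-high. H2-K1 over H2-D1 was 1.34, 1 and 0.951 in CD25-high and 1.56, 1.23 and 1.03 in CD25-low libraries 1, 2 and 3 (exact p 0.5, without pairing), and lower in CD25-high in each of the 3 pairs. B2m over the sum of H2-K1 and H2-D1 was 8.65 ± 3.41 in CD25-high and 6.63 ± 1.35 in CD25-low libraries (SD, n = 3 each, exact p 0.5), with CD25-high library 1 at 12.5. The smallest p that 3 against 3 libraries allow is 0.1, and 11 ratios were computed.

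Log2 fold changes of the other class I genes lay on both sides of 0. Of 24 listed other class I and class I-like genes, 12 had a row and all 12 were tested. Without the block 0 passed, where 0.655% of all tested genes did. With it 1 passed, H2-Q10, which rose, where 1.73% of all tested genes were higher and 2.9% lower. Their median log2 fold change was -0.40, with 8 of 12 below 0, beside 49.2% of all tested genes. All CD25-high libraries lay above all CD25-low libraries in 1 of the 12 (H2-Q5), and in 7.41% of all tested genes. They lay below them in 4 of the 12, and in 9.54% of all tested genes. These 4, named after their values were seen, were, with log2 fold changes and edgeR adjusted p, H2-Q2 (-3.43, SE 1, adjusted p 0.214, and 0.053 with the block), H2-Q4 (-0.74 ± 0.28, 0.364, and 0.12 with the block), the class I-like Mr1 (-0.95 ± 0.41, 0.43, and 0.195 with the block) and Cd1d1 (-0.95 ± 0.68, 0.666, and 0.283 with the block). H2-Q2 had few counts, 4, 8 and 1 in CD25-high libraries 1, 2 and 3, against 96, 48 and 15 in CD25-low libraries 1, 2 and 3. H2-Q10, a Qa-region heavy chain known as a secreted liver product, measured 19.5, 45.8 and 44.6 CPM in CD25-high libraries 1, 2 and 3, against 4.05, 26.1 and 19.9 CPM in CD25-low libraries 1, 2 and 3. It was higher in CD25-high in each pair and far lower in the libraries numbered 1 of both groups (log2 difference -1.78, adjusted p 0.00557, with the group as a term). Its log2 fold change was 1.13 ± 0.56 (edgeR adjusted p 0.505), and 1.38 ± 0.29 with the block (adjusted p 0.0147).

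H2-Q6 and H2-Q7, the Qa-2 heavy chains, are described after their values were seen. H2-Q6 measured 92.3, 128 and 138 CPM in CD25-high libraries 1, 2 and 3, against 106, 124 and 93.5 CPM in CD25-low libraries 1, 2 and 3 (log2 fold change 0.14 ± 0.22, edgeR adjusted p 0.865). H2-Q7 measured 115, 142 and 135 CPM in CD25-high libraries 1, 2 and 3, against 103, 134 and 110 CPM in CD25-low libraries 1, 2 and 3 (0.18 ± 0.20, adjusted p 0.81). The ranges overlapped for both. H2-K1 took 39.1%, 36.5% and 36.1% of all class I heavy chain counts in CD25-high libraries 1, 2 and 3, against 50.2%, 43.2% and 42.3% in CD25-low libraries 1, 2 and 3. For H2-D1 the share was 25.5%, 32.1% and 33.4% in CD25-high libraries 1, 2 and 3, against 28.2%, 30.9% and 36.0% in CD25-low libraries 1, 2 and 3, and the groups overlapped (two-sided exact permutation p 0.7). H2-Q6 and H2-Q7 together took 21.6%, 18.4% and 18.7% in CD25-high libraries, against 11.3%, 13.7% and 11.8% in CD25-low libraries. The H2-K1 share and the joint H2-Q6 and H2-Q7 share did not overlap between groups (exact p 0.1 each). Shares are parts of 1 total, so a lower H2-K1 share raises the rest, and these p-values are not separate results. H2-K1 over the sum of H2-Q6 and H2-Q7, per length, was 1.85 ± 0.0729 in CD25-high and 3.59 ± 0.59 in CD25-low libraries (SD, n = 3 each), without overlap and at the smallest exact p that the design allows, 0.1 (0.55 adjusted over the 11 ratios). H2-D1 over the same sum was 1.73 ± 0.345 in CD25-high and 2.86 ± 0.477 in CD25-low libraries, also without overlap and with an exact p of 0.1. Both ratios have the same denominator, so they are not separate results either. Summed into 1 feature, the 13 heavy chain rows had a log2 fold change of -0.49 ± 0.20 (edgeR adjusted p 0.413, and 0.0838 with the block). Without CD25-high library 1 the value was -0.32.

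**Figure D2:**
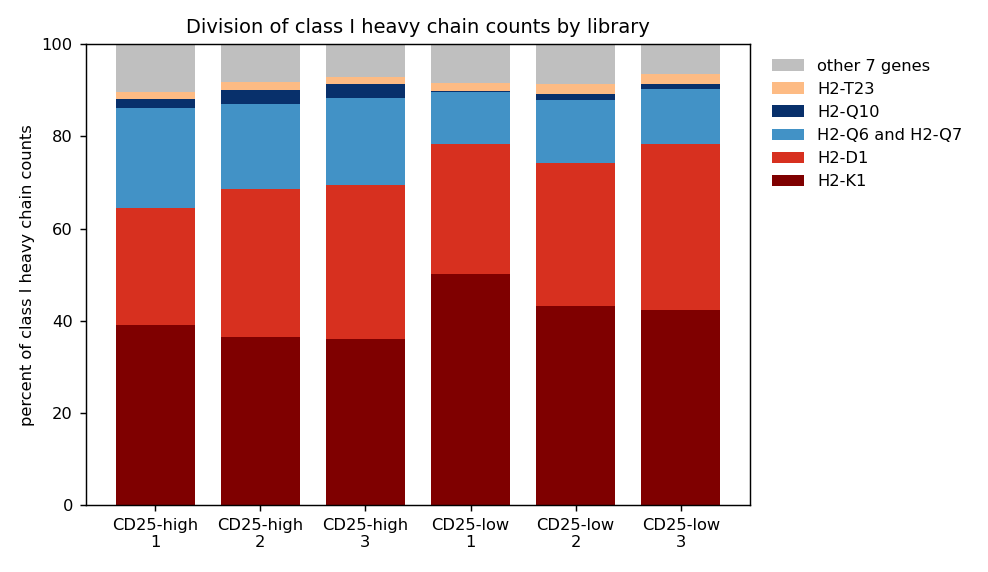
Percent of all class I heavy chain counts taken by single genes in each library, as stacked bars from 0 to 100. H2-K1 takes 36.1% to 39.1% in the CD25-high libraries and 42.3% to 50.2% in the CD25-low libraries, and H2-Q6 with H2-Q7 takes 18.4% to 21.6% in CD25-high and 11.3% to 13.7% in CD25-low libraries.

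Heavy chain genes are close copies, so reads can be split among them in ways the counting rule decides, and that rule is not given in the sources used here. Read length is unknown too, so 50 bases was assumed for a check of shared sequence. Of all 50-base stretches of their GENCODE M21 transcripts, 9.63% of H2-K1, 12.8% of H2-D1 and 14.5% of H2-T23 also occur in another gene. The share was 35% for H2-Q6, 26.5% for H2-Q7 and 19.1% for H2-Q10, and the largest shared part of H2-Q10, 14%, is with H2-Q7. At this length H2-K1 shares less than those 3 genes, and B2m shares 0% with any other gene. The largest shared part of H2-K1, 5.18%, is with H2-Q10. Other members overlap neighbours: Erap1 shares 834 exonic bases with Cast on the opposite strand, Tapbp 904 with Gm19412 on the opposite and 149 with Zbtb22 on its own strand, Tap2 533 with Gm15821 and 165 with Gm20496, Tap1 212 with Psmb9 and Nlrc5 78 with 9330175E14Rik, each on the opposite strand. As the strand setting is unknown, those counts may hold reads of the neighbour, in an amount that was not estimated.

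**Figure D3:**
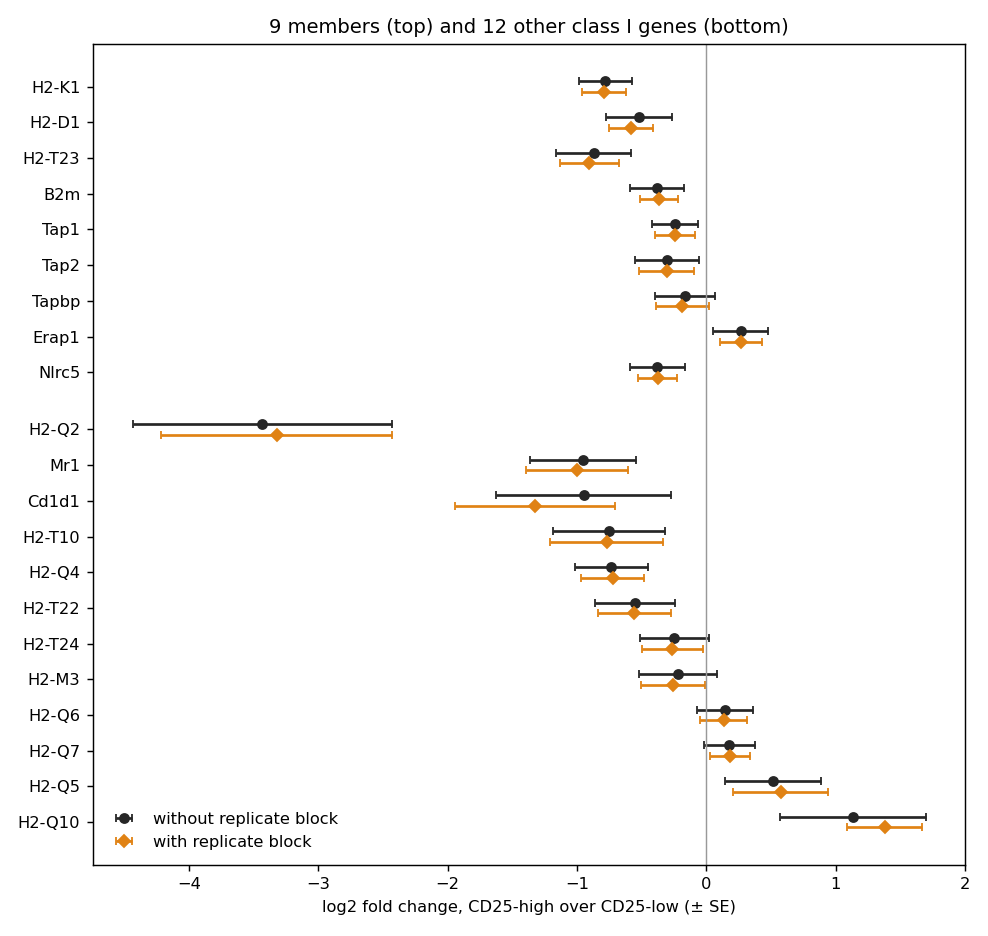
Log2 fold changes, CD25-high over CD25-low, with SE bars, for the 9 members (upper block) and the 12 other tested class I genes (lower block), without (circles) and with (diamonds) the replicate block. All members but Erap1 lie below 0, H2-T23 (-0.87) and H2-K1 (-0.78) lowest, while H2-Q6, H2-Q7, H2-Q5 and H2-Q10 lie above 0.

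On the assembly GRCm38 (mm10), with GENCODE M21 coordinates, 6 of the 9 members lie on chromosome 17, in or near the H2 complex. These are Tapbp (33915899 to 33929292, plus strand), H2-K1 (33996017 to 34000347, minus), Tap1 (34187553 to 34197225, plus), Tap2 (34203527 to 34216321, plus), H2-D1 (35262730 to 35267499, plus) and H2-T23 (36029773 to 36032855, minus). B2m lies on chromosome 2 from 122147686 to 122153083, Nlrc5 on chromosome 8 from 94434356 to 94527272 and Erap1 on chromosome 13 from 74639568 to 74693201, all on the plus strand. Chromosome 17 holds both the largest log2 fold change in size (H2-T23) and the smallest (Tapbp).

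Genes that supply peptides gave no call. Of 16 listed genes of the proteasome, its activators and cytosolic peptidases, 16 were tested and 0 passed in either fit. Their median log2 fold change was 0.12, with 6 of 16 below 0, beside 49.2% of all tested genes. Those 6, named after their values were seen, were Psmb8 (-0.12), Psmb9, Psmb10 (-0.38), Psme1 (-0.32), Psme2 (-0.41) and Pomp (-0.23). The rest lay above 0. All CD25-high libraries lay below all CD25-low libraries in 3 of the 16 (Psme1, Psme2 and Pomp). They lay above them in 2 (Psme3 and Psmb5). Over all tested genes these shares were 9.54% and 7.41%. The smallest p-values were those of the oligopeptidase Thop1 (1.07 ± 0.47, edgeR adjusted p 0.442) and the nuclear proteasome activator Psme3 (0.49 ± 0.22, adjusted p 0.458). Psmb9, the immunoproteasome subunit whose gene starts head to head with Tap1, is named after its values were seen. It averaged 148 ± 53.9 CPM in CD25-high libraries, against 200 ± 48.5 CPM in CD25-low libraries (log2 fold change -0.43 ± 0.30, adjusted p 0.649) and was lower in the libraries numbered 1 (-0.82, adjusted p 0.0135, with the group as a term). The same log2 difference for Tap1 was 0.04 (adjusted p 0.929).

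Partners of loading in the endoplasmic reticulum had a median above 0. Of 11 tested partners 0 passed in either fit. The median log2 fold change was 0.17, beside 0.01 for all tested genes. Below 0 were 4 of 11, beside 49.2% of all tested genes. Calr, which encodes the chaperone calreticulin, measured 217, 244 and 268 CPM in CD25-high libraries 1, 2 and 3, against 161, 156 and 183 CPM in CD25-low libraries 1, 2 and 3. Canx, which encodes calnexin, measured 780, 725 and 711 CPM in CD25-high libraries 1, 2 and 3, against 572, 577 and 527 CPM in CD25-low libraries 1, 2 and 3. All CD25-high libraries lay above all CD25-low libraries in 3 of the 11 (Calr, Canx and Pdia3), and in 7.41% of all tested genes. They lay below them in 0 of the 11, and in 9.54% of all tested genes. Log2 fold changes were 0.54 ± 0.18 (edgeR adjusted p 0.307, and 0.0584 with the block) for Calr and 0.40 ± 0.17 (0.412, and 0.12 with the block) for Canx. For Pdia3, which encodes ERp57 and is named after its values were seen, the log2 fold change was 0.17 ± 0.17 (0.783, and 0.573 with the block). Calreticulin and calnexin fold many proteins besides class I chains.

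Transcription factors of class I promoters, 14 tested of 15, had 0 calls in either fit and a median log2 fold change of -0.12. For Rfx5, a subunit of the complex that binds the X box, the log2 fold change was -0.62 ± 0.33 (edgeR adjusted p 0.545). Of 27 listed genes of the interferon-gamma receptor and its response, 3 of which (Tap1, Psmb8 and Psmb9) are class I pathway genes counted above, 24 were tested. None of these 24 passed without the block. With the block 6 fell and 0 rose, where 2.9% of all tested genes were lower and 1.73% higher. The median log2 fold change without the block was -0.46, with 21 of 24 below 0, beside 49.2% of all tested genes. Above 0 were, named after their values were seen, Ifngr1 (0.60 ± 0.47), Gbp3 (0.60 ± 0.21) and Gbp7 (0.47 ± 0.21). Their edgeR adjusted p was 0.698, 0.309 and 0.453, and 0.0509, 0.0513 and 0.0868 with the block. All CD25-high libraries lay above all CD25-low libraries in 1 of the 24 (Gbp3), and below them in 9 (Tap1 among these). Over all tested genes these shares were 7.41% and 9.54%. Gbp9, a guanylate-binding protein, averaged 40.5 ± 17.8 CPM in CD25-high cells, against 102 ± 17.6 CPM in CD25-low cells (-1.34 ± 0.31, edgeR adjusted p 0.108, and 0.00176 with the block). Jak1, the kinase of interferon and interleukin-2 family receptors, averaged 269 ± 29.0 CPM in CD25-high cells, against 437 ± 87.0 CPM in CD25-low cells (-0.70 ± 0.21, 0.217, and 0.0225 with the block). Gbp2 (-0.83 ± 0.29, 0.318, and 0.0395 with the block) and Ifi47 (-0.75 ± 0.29, 0.374, and 0.0221 with the block) also fell with the block, as did Iigp1 and Irgm1. Iigp1, Irgm1 and Ifi47 overlapped between groups and were higher in the libraries numbered 1. Those log2 differences were 2.49, 0.89 and 0.74 (edgeR adjusted p 0.000147, 0.0158 and 0.02, with the group as a term).

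**Figure D4:**
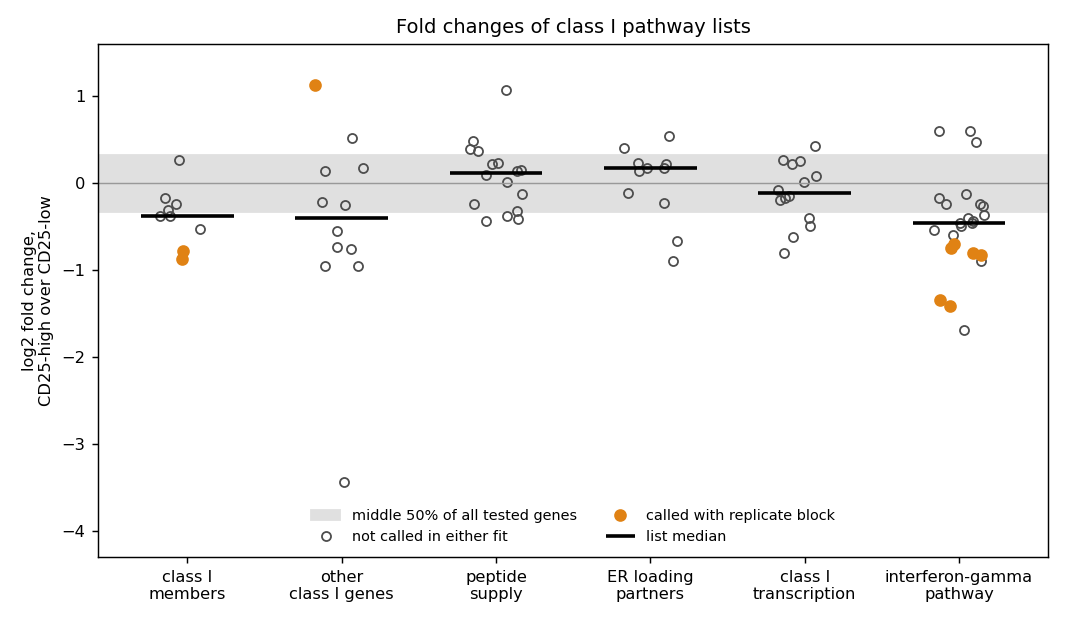
Log2 fold changes, CD25-high over CD25-low, of the tested genes of 6 lists (points, filled where called with the replicate block), with each list's median (bar) and the middle 50% of all tested genes (grey band, -0.33 to 0.32). The medians are -0.38 for the members, -0.40 for other class I genes, 0.12 for peptide supply, 0.17 for loading partners, -0.12 for class I transcription and -0.46 for the interferon-gamma list.

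Of 6 tested genes that act on class I molecules after transcription, 0 passed in either fit. Susd6, which helps to remove class I molecules from the cell surface, averaged 16.0 ± 6.85 CPM in CD25-high cells, against 34.4 ± 7.98 CPM in CD25-low cells (-1.10 ± 0.35, edgeR adjusted p 0.265, and 0.0601 with the block). For the intramembrane protease gene Sppl2a the log2 fold change was 0.12 ± 0.19 (adjusted p 0.867). Class II presentation genes mark the antigen-presenting cells that a sort of T cells could carry. Of 11 listed, 5 had a row and 4 were tested, and H2-Ab1 (0.733 CPM in CD25-high, against 1.41 CPM in CD25-low), Cd74 (3.33 CPM in CD25-high, against 1.19 CPM in CD25-low) and H2-DMa (0.705 CPM in CD25-high, against 1.64 CPM in CD25-low) were near the lower end of what was measured. H2-Ob, which did not pass the low-count filter and was not tested, was at 0 in the 3 CD25-high libraries. It measured 0.273, 6.56 and 1.82 CPM in CD25-low libraries 1, 2 and 3 (mean 2.88 ± 3.27 CPM, SD), most of it in library 2. Ctss, which encodes cathepsin S, was the 1 gene called with the block (36.1 ± 15.6 CPM in CD25-high, against 89.1 ± 17.3 CPM in CD25-low cells, -1.30 ± 0.31, edgeR adjusted p 0.12, and 0.00117 with the block).

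The libraries numbered 1 stood apart from the others in 7.17% of tested genes (3.98% lower and 3.19% higher), with the group as a term. Among the members 0 passed that test, and the median log2 difference was -0.10, against -0.03 over all tested genes. The members' values lay on both sides of 0. They were negative for H2-D1 (-0.56, edgeR adjusted p 0.0864), H2-T23 (-0.58, 0.176) and Tap2 (-0.41, 0.308), and positive for B2m (0.35, 0.211), Nlrc5 (0.35, 0.227) and Erap1 (0.36, 0.227).

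The genes with the nearest library profile were sought among 8138 protein-coding genes with a mean of at least 5 CPM. Each gene's log2 CPM was centred on its mean over the 6 libraries, and its root mean square difference from the mean profile of the 9 members was taken. The mean profile of the members was -0.37, -0.04 and -0.17 in CD25-high libraries 1, 2 and 3, against 0.25, 0.18 and 0.14 in CD25-low libraries 1, 2 and 3. Nearest was Psme2, which encodes a subunit of the interferon-inducible proteasome activator PA28, at 0.041 log2 units, followed by Cyhr1 (0.055), the antiviral deaminase Apobec3 (0.067), the protease Bace1 (0.068) and the ubiquitin ligase Peli1 (0.072). Psme2 is on the peptide supply list. It measured 21.5, 28.3 and 26.5 CPM in CD25-high libraries 1, 2 and 3, against 35.5, 34.4 and 31.4 CPM in CD25-low libraries 1, 2 and 3, without overlap (log2 fold change -0.41 ± 0.23, edgeR adjusted p 0.559). The mean profile is itself lower in every CD25-high library than in any CD25-low library. The choice of Psme2 by closeness to that profile therefore fixed its separation and the size of its difference. The members themselves lay farther from their own mean, between 0.124 (Tap1) and 0.395 (Erap1). The 5 nearest genes were picked by this distance from 8138 and the members were not, so these distances cannot be compared.

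**Figure D5:**
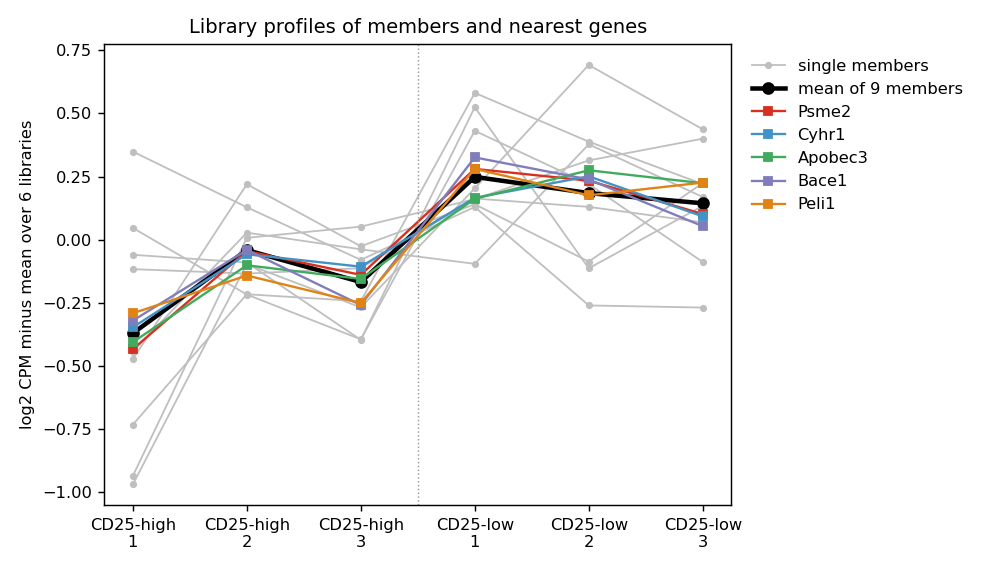
Log2 CPM minus each gene's mean over the 6 libraries, CD25-high left and CD25-low right of the dotted line, for the 9 members (grey), their mean (black) and the 5 nearest genes (colours); lines join libraries only to guide the eye. CD25-high library 1 is the lowest point of the mean profile (-0.37), and Psme2 follows the mean within 0.041 log2 units (root mean square).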

How the data were processed

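The deposited table holds raw counts, whole numbers of reads per Ensembl gene and library, which the authors made from sequenced libraries of amplified total RNA (NuGEN Ovation RNA-Seq System v2, per the labels' protocols). The submitters' processing notes name Novoalign, DESeq2, mm10 and hg19 but no versions or roles. How reads were counted (tool, strand, annotation, multiple matches) is not given in the sources used here. Row totals start at 10. GENCODE M21 named 15169 of 15445 identifiers.

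Members and gene lists were chosen with earlier results of these data known. Counts were tested with edgeR 4.0.16 (R 4.3.3): quasi-likelihood F test, TMM factors, filterByExpr (minimum count 10, minimum total 15), group as the only term, Benjamini-Hochberg adjustment over 12987 genes, calls below 0.05. SE was taken as the size of the log2 fold change divided by root F. CPM uses TMM-adjusted library sizes. Paired differences and profiles add 0.5 to CPM before log2. The fits were tested on simulated data. Genes were named by a rule: all members, Il2ra, up to 4 called genes per direction of each list or else the 2 with the smallest p, the 2 most abundant markers of each cell type list, and the 5 nearest profiles. For 1 gene under this rule, values are not reported here.

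Deviations from group means correlated at 0.47, 0.31 and 0.25 for the same-numbered pairs 1, 2 and 3 over the 2000 most variable genes, each above the limit of 0.1, so the numbers were taken to pair the libraries. The labels do not state a pairing, and CD25-high library 2 with CD25-low library 3 (0.19) and CD25-high library 3 with CD25-low library 2 (0.10) also passed. Same-group libraries differed by more than sampling noise (chi-square over its degrees of freedom, 27.8 to 98.4). Alternatives were DESeq2 1.42.0, limma 3.58.1 voom, other factors and filters, removal of abundant genes, the block, and libraries or pairs left out. Upstream sequences are from RefSeq (GRCm38.p6).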

Additional observations from a re-analysis of the deposited data

How the results depend on the processing

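Without the replicate block, members called numbered 0 under limma voom, upper-quartile, RLE or no factors, no filter, a stricter filter (1 CPM in 3 libraries, mean count 10), removal of the mitochondrial and 50 most abundant genes (B2m among them, so 8 members were tested) and each library left out (0 to 0), while DESeq2 called 1 (H2-K1) of 369 genes. The replicate block called 2 members, where 601 of 12987 tested genes passed (4.63%). In DESeq2, chosen after seeing the data, it called 3 (H2-K1, H2-D1 and H2-T23), where 1055 of 13947 genes passed. With the block and without pair 1, 2 or 3, the members called were 0, 3 and 1 (range 0 to 3). In these fits 461 of 13420, 486 of 13105 and 536 of 13132 tested genes passed. The members were H2-K1, H2-D1 and B2m without pair 2 (edgeR adjusted p 0.000753, 0.0189 and 0.0306), and H2-K1 without pair 3 (0.00288). H2-T23 was called in neither. Genes called without the block, 85, ranged from 22 to 130 with a library left out: 130, 38 and 23 without CD25-high library 1, 2 and 3, and 49, 22 and 33 without CD25-low library 1, 2 and 3. Tapbp changed sign without CD25-high library 1 (0.0046; -0.33 to 0.0046 over libraries left out) and, with the block, without pair 1 (0.0261; -0.44 to 0.0261 over pairs left out). The other 8 members kept their direction in every alternative run, H2-K1 between -0.95 and -0.54, H2-T23 between -1.05 and -0.65, and Erap1 between 0.15 and 0.41. With single libraries left out, H2-D1 ranged from -0.68 to -0.26, B2m from -0.52 to -0.19, Tap2 from -0.42 to -0.17, Nlrc5 from -0.51 to -0.25, Erap1 from 0.15 to 0.41 and Tap1 from -0.27 to -0.22. With 3 libraries a group and no block, the SE of the members' log2 fold changes was 0.18 to 0.29, which limits the differences that could pass.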
